A study of Mus musculus with 6 samples.

Results

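The 10 genes described here encode transcription factors that pattern the otic vesicle: Hmx2, Hmx3, Dlx5, Dlx6, Otx1, Otx2, Gbx2, Pax2, Gata3 and Lmx1a. They were chosen by symbol, with earlier results of these data known. Each symbol was matched to an Ensembl gene among the 39179 genes of the count files, where all 10 were found. RNA was measured by paired-end sequencing in 3 cochlear and 3 vestibular libraries. Both groups were sensory epithelia of wild-type (WT) C57Bl/6J mice on postnatal day 0 (P0), with no allele, treatment or time point that differed between them. Each sample pooled at least 20 organs of males and females, so that no value belongs to a single animal. The study describes a dissection of both tissues from 10 mice, whose inner ears number the 20 that the labels give per sample. It used 450 ng of RNA in each library. Separate RNA pools for the 3 libraries of a tissue are not described, so these may share a pool, and the p-values below measure only the spread between them, which may be technical.

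The inner ear arises from the otic placode, which folds in and closes to form the otic vesicle. Signals from the hindbrain and the midline divide this vesicle into a dorsal portion, which gives the semicircular canals and most of the balance organ, and a ventral portion, from which the cochlea grows out. Transcription factors that are confined to portions of the vesicle carry this pattern forward. Hmx2, Hmx3, Dlx5, Dlx6 and Gbx2 are known for the dorsal vesicle and the vestibular organ, Otx1 and Otx2 for its ventral and lateral walls, Pax2 and Gata3 for the outgrowth of the cochlea, and Lmx1a for the borders between sensory and non-sensory epithelium.

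Several of these genes lie beside a sister gene. On GRCm38 (GENCODE vM21), Hmx3 spans bases 131542867 to 131544925 of chromosome 7 on the plus strand, and Hmx2 starts on the same strand 3847 bp further on. Dlx6 and Dlx5 are on chromosome 6 on opposite strands, with 9236 bp between them. The promoter windows of Hmx3, Hmx2 and Gata3 are printed first because these genes are among those with the largest differences between the tissues, in opposite directions, and that of Otx2 because it is the gene whose windows hold the motifs searched. Each window is reference sequence of RefSeq (GRCm38.p6), from 250 bases before to 50 bases after an annotated start, written 5′ to 3′ on the strand of the gene, and capitals mark the motifs described after the sequences. The Hmx3 window is chr7:131542713-131543012 (plus strand), the Hmx2 windows, at separate starts, are chr7:131548507-131548806 and chr7:131554043-131554342 (plus strand), and the Gata3 window is chr2:9878551-9878850 (minus strand). Otx2 has several windows, and the one printed, chr14:48665060-48665359 (minus strand), is the one with the most matches.
Hmx3: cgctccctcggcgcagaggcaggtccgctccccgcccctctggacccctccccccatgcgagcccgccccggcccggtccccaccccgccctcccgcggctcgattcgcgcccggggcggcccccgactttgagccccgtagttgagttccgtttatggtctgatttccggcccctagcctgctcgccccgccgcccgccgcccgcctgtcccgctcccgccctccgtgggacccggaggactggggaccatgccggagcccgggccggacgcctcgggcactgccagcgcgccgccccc
Hmx2, upstream start: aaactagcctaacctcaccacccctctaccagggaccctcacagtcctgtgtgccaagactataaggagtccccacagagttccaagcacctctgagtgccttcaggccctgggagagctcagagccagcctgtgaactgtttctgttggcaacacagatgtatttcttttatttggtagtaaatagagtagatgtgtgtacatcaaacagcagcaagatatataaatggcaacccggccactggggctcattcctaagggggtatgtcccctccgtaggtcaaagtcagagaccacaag
Hmx2, downstream start: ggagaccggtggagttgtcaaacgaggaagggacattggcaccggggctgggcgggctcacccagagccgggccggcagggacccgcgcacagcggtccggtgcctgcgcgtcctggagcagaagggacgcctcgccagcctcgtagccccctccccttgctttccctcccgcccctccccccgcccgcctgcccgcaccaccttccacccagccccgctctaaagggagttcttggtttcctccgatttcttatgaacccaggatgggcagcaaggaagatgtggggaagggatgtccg
Gata3: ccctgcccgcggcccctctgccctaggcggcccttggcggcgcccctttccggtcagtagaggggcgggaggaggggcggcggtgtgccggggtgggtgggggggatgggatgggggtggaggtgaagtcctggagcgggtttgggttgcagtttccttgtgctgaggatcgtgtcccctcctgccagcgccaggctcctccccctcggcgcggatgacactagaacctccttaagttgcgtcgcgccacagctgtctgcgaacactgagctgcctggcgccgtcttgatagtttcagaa
Otx2: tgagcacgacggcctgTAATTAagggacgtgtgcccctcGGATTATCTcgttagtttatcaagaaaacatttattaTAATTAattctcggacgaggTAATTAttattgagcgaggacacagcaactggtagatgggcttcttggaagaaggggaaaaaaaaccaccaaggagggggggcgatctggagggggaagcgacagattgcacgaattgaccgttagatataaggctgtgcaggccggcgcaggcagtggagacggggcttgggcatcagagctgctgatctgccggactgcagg

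The Hmx3 window was 78.0% G and C with 39 CpG dinucleotides, where the median of 32851 such windows was 52.7% with 7 and the 95th percentile was 73.7% G and C. The downstream Hmx2 window held 67.7% G and C with 22 CpG and the Gata3 window 67.3% with 22, whereas the upstream Hmx2 window held 2 CpG. Core motifs of Dlx-type homeodomain, Otx and GATA proteins were searched on both strands, and none of Hmx proteins was. TAATTA is a core bound by many homeodomain proteins such as those of the Dlx family, TAATCC is bound by Otx proteins, and AGATAA by GATA factors. TAATTA was present in 5.29% of all windows, TAATCC in 7.06% and AGATAA in 11.2%. Windows were given for 7 of the 10 genes, 13 windows in all. Among these, matches were found in Otx2 windows only. Of the Otx2 windows not printed, one holds 1 TAATTA, another 1 AGATAA and another no match. The Otx2 window above holds TAATTA at 3 places, and TAATCC and AGATAA at 1 place each on the opposite strand, where they share bases and appear as a single run of capitals. A match is a string of letters, and no binding was measured.

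Library sizes were 24464483 to 29225105 counts on genes in the cochlea and 25476572 to 33664793 in the vestibule, and levels are given as counts divided by library size (CPM), where 1 CPM stands for 24.5 to 33.7 counts. To find differentially expressed (DE) genes, edgeR's quasi-likelihood test was applied to the 14723 genes that reached 1 CPM in 3 libraries, and p-values were adjusted by Benjamini-Hochberg over all of them, with an FDR of 0.05 as the threshold. A log2 fold change is the vestibule minus the cochlea after TMM scaling, whereas CPM values are scaled by library size alone. Marker lists for cell types of the ear were read by the same test. Hair cell markers such as Myo7a and Pou4f3 were present in every library, and 4 of 9 were higher in the vestibule and none in the cochlea. Of 8 supporting cell markers 6 were higher in the cochlea and 1 (Otog) in the vestibule. Their sum was 8160 to 11359 CPM in the cochlea and 2679 to 3048 CPM in the vestibule, and most of it came from Tecta (7010 to 9689 CPM and 412 to 555 CPM) and Otog (663 to 1184 CPM and 1895 to 2345 CPM), which differed in opposite directions. The other 6 summed to 487 to 597 CPM in the cochlea and 227 to 236 CPM in the vestibule. Markers of other cell types were higher in the vestibule with no gene in the other direction, among them all 5 melanocyte markers (sums of 31.0 to 60.0 CPM in the cochlea and 272 to 336 CPM in the vestibule), all 6 dark cell and strial markers (185 to 219 CPM and 773 to 795 CPM), 3 of 4 endothelial markers (55.1 to 84.6 CPM and 322 to 457 CPM), all 5 macrophage markers (43.2 to 56.9 CPM and 168 to 197 CPM) and 3 of 6 Schwann cell markers (434 to 653 CPM and 878 to 1328 CPM). Cartilage and bone markers went both ways, with 5 of 8 higher in the vestibule and Matn1 higher in the cochlea, as did those of the periotic mesenchyme (Tbx18 higher in the vestibule and Pou3f4 in the cochlea, of 5) and of the endolymphatic duct and sac (Slc26a4 and Atp6v1b1 in these directions, of 3 tested). Of 3 tested brain neuron markers Slc17a7 alone was higher in the cochlea, and none of 4 tested red blood cell markers were DE. No cochlear library reached 1 CPM for Mlana and Tyrp1, and no vestibular library did for Hes5 and Slc17a7. Each of these could be tested only because a tissue was high. Of all genes tested, 15.8% were higher in the vestibule and 11.6% in the cochlea, and the marker counts are descriptions. No gene of these lists was at 0 in all libraries. The part of these cell types in the differences given below was not tested, and in bulk tissue fewer cells of a type cannot be told apart from less RNA per cell. Cochlea replicate 3 stood apart from the other libraries in its skeletal muscle markers (6 genes), which summed to 278 CPM against at most 26.2 CPM elsewhere.

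Of the 10 factors 9 could be tested, and 7 of them were DE at an FDR of 0.05, where 27.4% of all genes tested were. Hmx2, Hmx3, Dlx5, Dlx6, Pax2 and Lmx1a were higher in the vestibule, as were 15.8% of all genes, and Gata3 was higher in the cochlea, as were 11.6%. Otx1 and Otx2 were not DE. Hmx2, Dlx5 and Dlx6 reached the 3 libraries of the filter only through the vestibule, so their low cochlear levels could only be tested because the vestibule was high, and the count of 7 is a description. The libraries of the tissues did not overlap in CPM for 7 of the 9 tested factors, 6 with the vestibule higher and 1 with the cochlea higher. This held for 41.8% of all genes tested, 27.5% and 14.3% in these directions. An absolute log2 fold change above 4 was found for 5 of the 9 and for 1.03% of all genes tested, and the 95th percentile of the absolute log2 fold change over all genes was 2.16.

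**Figure D1:**
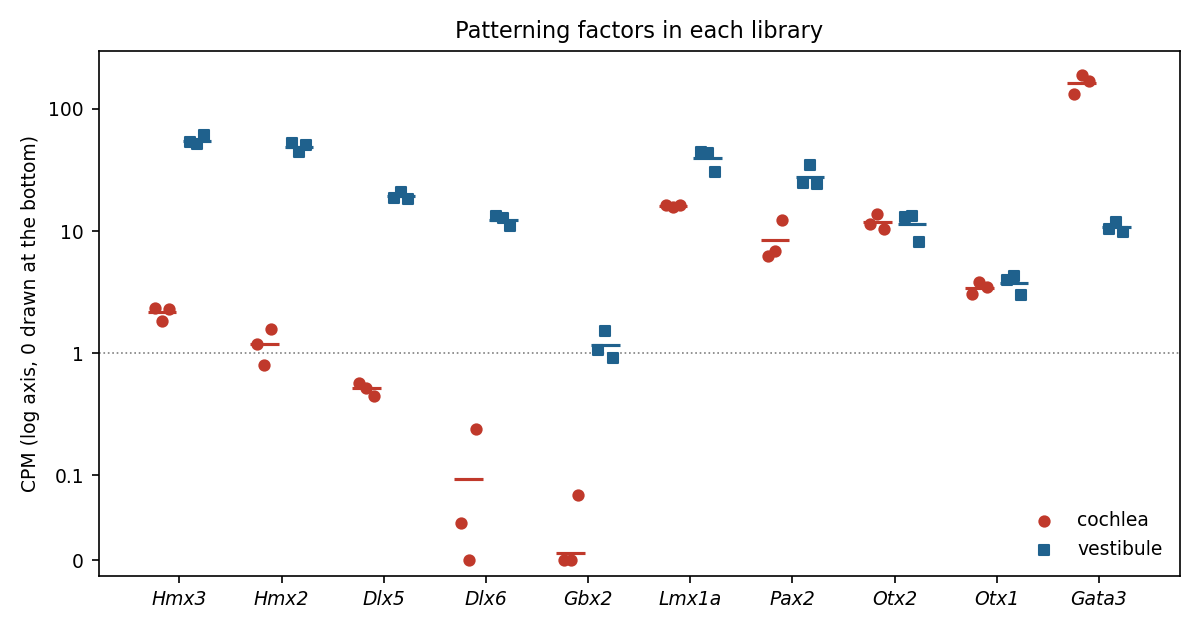
Level of each of the 10 factors in CPM (log axis) in the 3 cochlear and 3 vestibular libraries, with a point per library, a bar at the mean of the tissue and values of 0 drawn at the lower edge. Gata3 is the gene whose cochlear points lie above its vestibular ones, and the points of the tissues overlap for Otx1 and Otx2.

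Hmx2 and Hmx3 encode homeodomain proteins of the same family that are required for the vestibular organ. Hmx2 (ENSMUSG00000050100, on chromosome 7 from 131548773 to 131558014, plus strand) had 29, 23 and 46 counts in the cochlear libraries and 1756, 1134 and 1295 in the vestibular ones. Its level was 1.19 ± 0.388 CPM (SD, n = 3) in the cochlea and 49.0 ± 4.29 CPM in the vestibule. The lowest vestibular library was thus far above the highest cochlear library, which was replicate 3. Its log2 fold change was 5.25 (SE 0.23, 95% interval 4.72 to 5.78, adjusted p = 4.02e-06 by edgeR's quasi-likelihood test), or 38.1-fold, which ranks 53 by absolute size among all genes tested. Hmx3 (ENSMUSG00000040148) had 57, 53 and 67 counts in the cochlear libraries and 1801, 1314 and 1546 in the vestibular ones, or 2.15 ± 0.273 CPM and 55.1 ± 4.96 CPM (SD, n = 3). The libraries of each tissue lay close together for Hmx3, and the tissues were again far apart. Hmx3 had a log2 fold change of 4.56 (SE 0.18, 95% interval 4.16 to 4.96, adjusted p = 2.95e-06), or 23.7-fold, and ranks 98. Hmx1, the remaining member of the family, did not pass the filter.

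Dlx5 and Dlx6 are a linked pair of distal-less homeobox genes, known for the semicircular canals as well as for the jaw and limb. Dlx5 (ENSMUSG00000029755, on chromosome 6 from 6877805 to 6882085, minus strand) had 14, 15 and 13 counts in the cochlear libraries and 624, 534 and 465 in the vestibular ones, or 0.513 ± 0.0641 CPM and 19.2 ± 1.39 CPM (SD, n = 3). None of the cochlear libraries reached 1 CPM, and all lay within a narrow range. Dlx5 had a log2 fold change of 5.10 (SE 0.21, 95% interval 4.61 to 5.59, adjusted p = 3.47e-06 by edgeR), or 34.3-fold, and ranks 59. Dlx6 (ENSMUSG00000029754, on chromosome 6 from 6863334 to 6868568, plus strand) had 1, 0 and 7 counts in the cochlear libraries and 443, 331 and 281 in the vestibular ones. At most 0.240 CPM was thus reached in the cochlea, against 12.4 ± 1.16 CPM (SD, n = 3) in the vestibule. All but 1 of the 8 cochlear counts were in replicate 3, while the vestibular libraries were close to each other. The log2 fold change of Dlx6 was 6.82 (SE 0.54, 95% interval 5.59 to 8.05, adjusted p = 4.37e-05), the rank being 12. Without cochlea replicate 3 it was 8.92, so that its size rests on a few counts. From the counts alone, 1055 against 8, Dlx6 was 128-fold higher in the vestibule relative to library size, with a 95% interval of 64.9 to 298 that covers counting error only.

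Gbx2, a homeobox gene of the dorsal and medial vesicle, was at the limit of detection. Gbx2 (ENSMUSG00000034486, on chromosome 1 from 89927956 to 89931179, minus strand) had 0, 0 and 2 counts in the cochlear libraries and 36, 39 and 23 in the vestibular ones. It reached 1 CPM in 2 vestibular libraries only, with a mean of 1.16 ± 0.319 CPM (SD, n = 3), and so did not enter the test. All vestibular libraries were above all cochlear ones, and in the summed counts, 98 against 2, the vestibule was 47.7-fold higher relative to library size, with a 95% counting interval of 12.8 to 399. When every gene with a count was tested (edgeR's quasi-likelihood test), the log2 fold change of Gbx2 was 5.22 with an adjusted p = 2.33e-05. In that test 19.3% of 24771 genes were DE, 11.3% higher in the vestibule and 8.05% higher in the cochlea.

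Pax2 and Lmx1a differed in the same direction as these genes, and by less. Pax2 encodes a paired-box factor that is needed for the growth of the cochlear duct and is also expressed in the vestibular sensory organs. Pax2 (ENSMUSG00000004231, on chromosome 19 from 44756045 to 44837871, plus strand) had 154, 198 and 358 counts in the cochlear libraries and 834, 896 and 617 in the vestibular ones. In CPM the cochlear libraries were at 6.29, 6.87 and 12.2 and the vestibular ones at 24.8, 34.9 and 24.2. Cochlea replicate 3 was well above the other cochlear libraries and still below each vestibular library. The log2 fold change of Pax2 was 1.60 (SE 0.27, 95% interval 0.99 to 2.21, adjusted p = 0.00234 by edgeR), or 3.04-fold. Lmx1a encodes a LIM homeodomain protein that marks non-sensory epithelium beside the sensory patches. Lmx1a (ENSMUSG00000026686, on chromosome 1 from 167689237 to 167848741, plus strand) had 396, 449 and 476 counts in the cochlear libraries and 1498, 1125 and 769 in the vestibular ones, with 39.5 ± 8.07 CPM (SD, n = 3) in the latter. The cochlear libraries were nearly equal at 16.2, 15.6 and 16.3 CPM, whereas vestibule replicate 3 was at 30.2 CPM and the others at 44.5 and 43.8 CPM. The log2 fold change of Lmx1a was 1.18 (SE 0.16, 95% interval 0.82 to 1.53, adjusted p = 0.000657), or 2.26-fold.

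Gata3 was the factor that was higher in the cochlea. It encodes a zinc-finger protein that is required for the cochlear duct and for auditory neurons, and loss of a gene copy causes deafness. Gata3 (ENSMUSG00000015619, on chromosome 2 from 9857078 to 9890034, minus strand) had 3230, 5458 and 4916 counts in the cochlear libraries and 348, 305 and 252 in the vestibular ones. Its level was 163 ± 29.1 CPM in the cochlea and 10.7 ± 1.04 CPM in the vestibule (SD, n = 3). The lowest cochlear library, at 132 CPM, was far above the highest vestibular library, at 11.9 CPM. The log2 fold change of Gata3 was -4.06 (SE 0.19, 95% interval -4.49 to -3.62, adjusted p = 5.21e-06 by edgeR's quasi-likelihood test), or 16.6-fold higher in the cochlea, and ranks 141. Of the 8 supporting cell markers 6 were higher in the cochlea as well, led by Fgfr3 and Tecta (log2 fold changes of -4.29 and -4.22). Of 8 neuronal markers 3 were higher in the cochlea and none in the vestibule, namely Tubb3 (log2 fold change -2.54, adjusted p = 0.0222 by edgeR), Stmn2 (-2.39, adjusted p = 0.0460) and Prph (-2.20, adjusted p = 0.0206), although their sum overlapped, at 218 to 605 CPM and 207 to 445 CPM. Their part in the difference of Gata3 was not tested.

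Otx1 and Otx2, homologues of the fly gene orthodenticle, showed no detectable difference between the tissues. Otx1, which is needed for the lateral semicircular canal (ENSMUSG00000005917, on chromosome 11 from 21994764 to 22002897, minus strand), had 74, 111 and 101 counts in the cochlear libraries and 134, 110 and 76 in the vestibular ones, or 3.44 ± 0.415 CPM and 3.75 ± 0.680 CPM (SD, n = 3). Otx2 (ENSMUSG00000021848, on chromosome 14 from 48657677 to 48673819, minus strand) had 279, 400 and 305 counts in the cochlear libraries and 437, 343 and 206 in the vestibular ones, or 11.9 ± 1.78 CPM and 11.5 ± 2.94 CPM. The libraries of the tissues overlapped for both genes, and vestibule replicate 3 was the lowest library for each. The 95% interval of the log2 fold change was -0.52 to 0.50 for Otx1 (adjusted p = 0.986 by edgeR) and -0.69 to 0.32 for Otx2 (adjusted p = 0.572). Differences within these intervals are not excluded by the data. Otx2 is also expressed in the choroid plexus. Of the 3 choroid plexus markers tested, the abundant Ttr was not DE (log2 fold change -0.02), and Kl (1.81, adjusted p = 0.00106) and Kcnj13 (1.34, adjusted p = 0.0109) were higher in the vestibule. Kl reached 1 CPM in no cochlear library and so passed the filter only through the vestibule. The part of the choroid plexus in the Otx2 level was not tested.

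**Figure D2:**
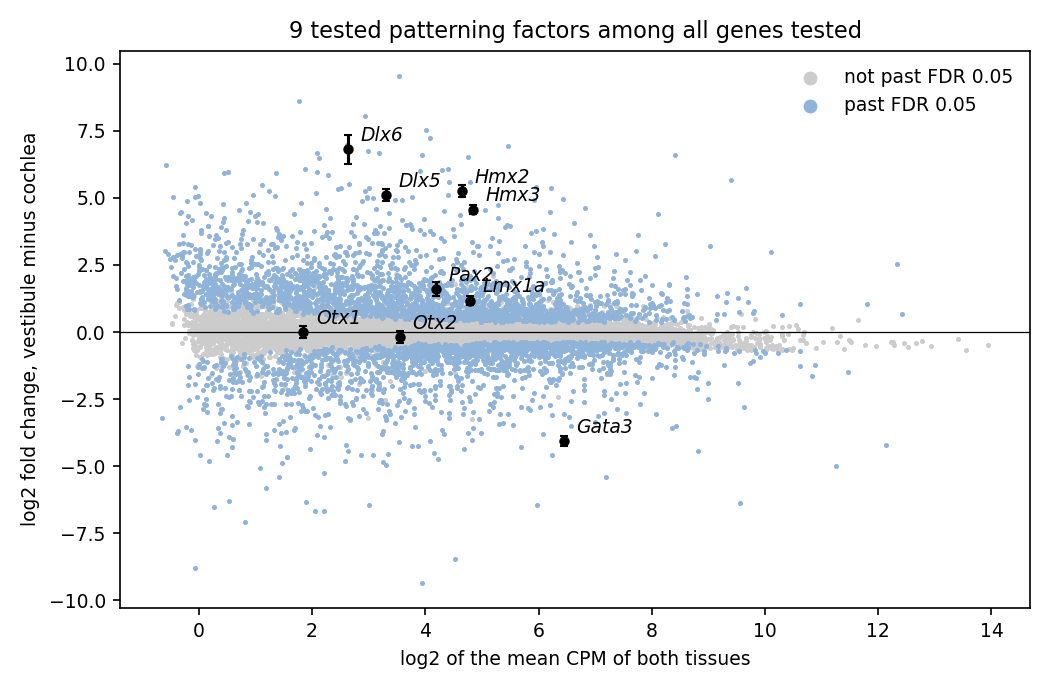
Log2 fold change (vestibule minus cochlea) against the log2 of the mean CPM for the 14723 genes tested and the 9 tested factors (black, bars of 1 SE). Genes past the FDR of 0.05 are light blue and the others grey. Hmx2, Hmx3, Dlx5 and Dlx6 lie at the upper edge of the cloud and Gata3 at its lower edge, with Otx1 and Otx2 near 0.

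Levels of different genes were compared per length, in RPKM (CPM divided by the gene length in kilobases), for the 9 factors in the deposited matrix. In the cochlea Gata3 was highest, at 41.1 ± 7.31 RPKM (SD, n = 3), followed by Lmx1a at 4.73 ± 0.112 and Otx2 at 3.51 ± 0.524 RPKM. Pax2 (1.57 ± 0.609 RPKM) and Hmx3 (1.49 ± 0.188 RPKM) came next with overlapping libraries, then Hmx2 (0.669 ± 0.217 RPKM) and Otx1 (0.638 ± 0.0766 RPKM), which overlapped as well, and last Dlx5 (0.367 ± 0.0451 RPKM) and Dlx6. The order in the vestibule was a different one. There Hmx3 was highest, at 37.9 ± 3.41 RPKM, and Hmx2 followed at 27.5 ± 2.40 RPKM, with no overlap between them. Dlx5 (13.5 ± 0.981 RPKM) and Lmx1a (11.7 ± 2.39 RPKM) overlapped, as did Dlx6 (5.22 ± 0.490 RPKM) with Pax2 (5.19 ± 1.11 RPKM) and Otx2 (3.39 ± 0.868 RPKM) with Gata3 (2.70 ± 0.262 RPKM). Otx1 was lowest, at 0.694 ± 0.126 RPKM. Gata3 thus ranked first of the 9 in the cochlea and 8 of 9 in the vestibule, where its level was close to that of Otx2. The lengths behind the matrix are those of the annotation the authors counted on, 1.78 kb for Hmx2 and 1.41 kb for Dlx5, while the exons in GENCODE vM21 cover 3216 bp and 2263 bp, so the levels of these genes depend on the annotation more than those of Hmx3 and Dlx6.

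The ratio of sister genes within a library does not depend on how the libraries are scaled. The log2 ratio of Hmx3 to Hmx2 (counts per kilobase, with 0.5 added to each count) was 1.26, 1.48 and 0.83 in the cochlear libraries and 0.33, 0.51 and 0.55 in the vestibular ones. Hmx3 was thus above Hmx2 in all 6 libraries, by 2.28-fold on average in the cochlea and 1.38-fold in the vestibule, and the libraries of the tissues did not overlap. The size of a ratio depends on the gene lengths used, and with the exon lengths of GENCODE vM21 it was 4.11-fold and 2.48-fold, with the same difference between the tissues. The difference of -0.73 had an exact two-sided permutation p = 0.1, which is the smallest that 3 libraries against 3 allow. For Dlx5 to Dlx6 the log2 ratio was 1.24, 1.44 and 1.47 in the vestibule, a ratio of 2.61, or 1.63 with the exon lengths of GENCODE vM21. In the cochlea it was 4.02, 5.70 and 1.60, values that rest on 0 to 7 counts of Dlx6. The difference of -2.39 (exact permutation p = 0.1) became -0.79 with 5 added to each count. For Otx1 to Otx2 the log2 ratio was -2.58, -2.52 and -2.26 in the cochlear libraries and -2.37, -2.31 and -2.10 in the vestibular ones. These libraries overlapped, and the difference was 0.19 (exact permutation p = 0.3).

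**Figure D3:**
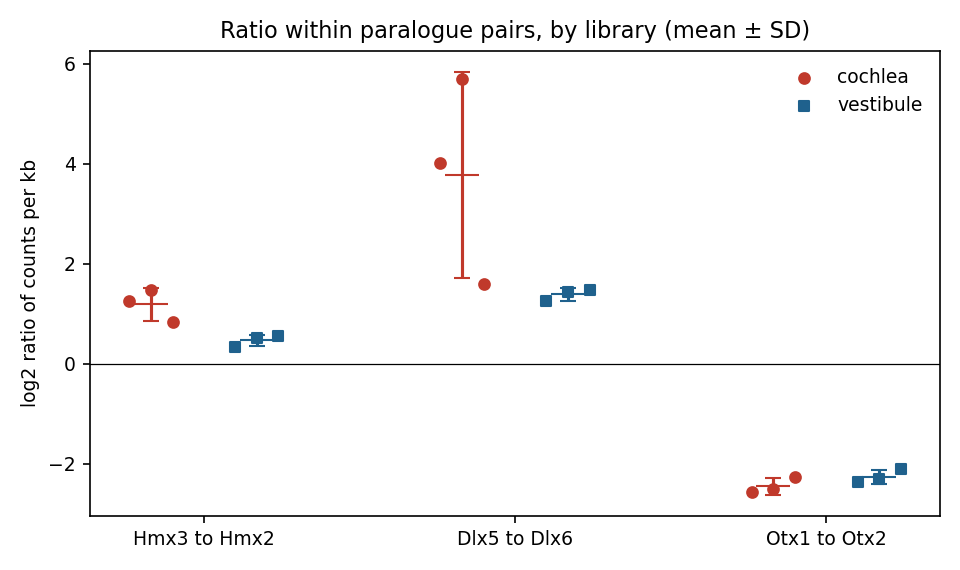
Log2 ratio within each library of Hmx3 to Hmx2, Dlx5 to Dlx6 and Otx1 to Otx2, in counts per kilobase with 0.5 added, with a point per library and a bar at the mean of the tissue. The vestibular points of Hmx3 to Hmx2 and of Dlx5 to Dlx6 lie below all cochlear points, and the cochlear points of Dlx5 to Dlx6 spread from 1.60 to 5.70.

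Some reads could belong to other transcripts at these loci. Dlx6os1, a non-coding RNA that overlaps Dlx6 on the opposite strand, had 0, 4 and 10 counts in the cochlear libraries and 152, 103 and 87 in the vestibular ones. Its log2 fold change was 4.41 (SE 0.56, adjusted p = 0.000554 by edgeR), in the direction of Dlx5 and Dlx6, and as for Dlx6 most of its cochlear counts were in replicate 3. No cochlear library reached 1 CPM, so Dlx6os1 passed the filter only through the vestibule. The kit marks the strand, but the strand setting of the counting is not given in the sources used here, so that reads of Dlx6 and Dlx6os1 might not be told apart. Near Gata3, 9230102O04Rik, a transcript on the same strand, had 31, 27 and 35 counts in the cochlear libraries and 2, 0 and 0 in the vestibular ones, and 4930412O13Rik, on the opposite strand, had 16, 28 and 41 against 9, 2 and 0. Both were below the filter. With every gene with a count tested, their log2 fold changes were -5.49 (adjusted p = 7.98e-06) and -3.12 (adjusted p = 0.00118), in the direction of Gata3. Otx2os1, opposite to Otx2, had 15, 6 and 11 counts against 15, 20 and 1, and the tissues overlapped as they did for Otx2.

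Genes within 250 kb of a factor were DE at a share near that of genes in general. Of 67 such genes in the files 28 were tested, and 8 (28.6%, against 27.4% of all genes) were DE, 7 higher in the vestibule and 1 higher in the cochlea, with a median log2 fold change of 0.01. Without the 2 that overlap a factor, Dlx6os1 and Fgfr2, 6 of 26 (23.1%) were DE. For Dlx6os1 and for Iqca (11, 13 and 4 counts in the cochlear libraries) no cochlear library reached 1 CPM. These genes could be tested only because the vestibule was high, and the counts of DE neighbours are descriptions. The count of 8 was 4 without vestibule replicate 1 or 2, where fewer of all genes were DE as well, and 14 with no filter, where more genes were tested. Bub3, a spindle checkpoint gene 2.21 kb beyond Hmx2, had 2232, 2431 and 2373 counts in the cochlear libraries and 9373, 6700 and 7385 in the vestibular ones, a log2 fold change of 1.57 (SE 0.13, adjusted p = 4.75e-05). It was thus higher in each vestibular library, by much less than Hmx2. Fgfr2, which in GENCODE vM21 has a long gene model that spans Hmx2 and Hmx3 on the opposite strand, differed by 1.35 (SE 0.18, adjusted p = 0.000689). Next to Lmx1a, Rxrg, a retinoid X receptor gene at a gap of 49.6 kb, went in the other direction. It had 552, 529 and 513 counts in the cochlear libraries and 110, 82 and 82 in the vestibular ones, a log2 fold change of -2.71 (SE 0.18, adjusted p = 1.49e-05). Itih2, at a gap of 204.6 kb from Gata3, was higher in the vestibule (2.32, SE 0.21, adjusted p = 8.85e-05) and so opposite to Gata3, and Iqca, near Gbx2, was higher in the vestibule as well (2.08, SE 0.40, adjusted p = 0.00492).

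**Figure D4:**
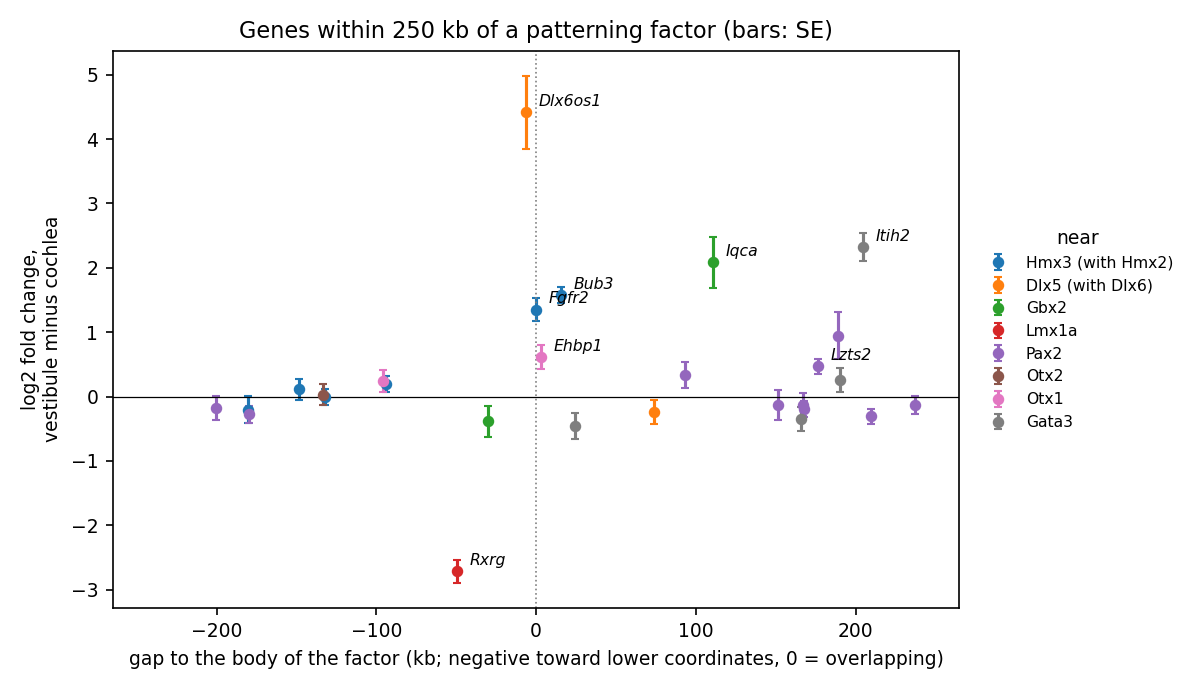
Log2 fold change (vestibule minus cochlea, bars of 1 SE) of the 28 tested genes within 250 kb of a factor against their gap to the factor in kb, negative toward lower coordinates, with gaps for the Hmx and Dlx pairs taken from Hmx3 and Dlx5. Most points lie near 0, and Dlx6os1 and Rxrg are the most distant from it.

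Sister genes of the same families followed more than a single direction. Of 15 other members of these families 6 were tested and all 6 were DE, 5 higher in the vestibule and 1 in the cochlea, where 27.4% of all genes tested were DE, 15.8% and 11.6% in these directions. Their median log2 fold change was 1.67, where that of all genes was near 0. Of these 6, Dlx4 passed the filter only through the vestibule and Gata6 only through the cochlea, so that each could be tested only because a tissue was high, and the count is a description. The other tested Dlx genes were all higher in the vestibule, as Dlx5 and Dlx6 were. Dlx4 had 7, 5 and 3 counts in the cochlear libraries and 90, 65 and 46 in the vestibular ones, a log2 fold change of 3.52 (SE 0.37, adjusted p = 0.000194 by edgeR), and Dlx2 had a log2 fold change of 2.22 (SE 0.26, adjusted p = 0.000365). Dlx1 (2.02, adjusted p = 0.000798) and Dlx3 (1.33, adjusted p = 0.00578) differed by less. Per length, Dlx5 at 13.5 RPKM was the highest Dlx gene in the vestibule, above Dlx3 at 6.63 ± 1.55 and Dlx2 at 5.96 ± 1.09 RPKM, whereas in the cochlea Dlx3 was the highest, at 2.41 ± 0.716 RPKM. The GATA genes did not move together. Gata2, a close relative of Gata3 that is known for the growth of the canals, rose from 46.4 ± 6.15 RPKM in the cochlea to 108 ± 8.20 RPKM in the vestibule (log2 fold change 1.09, SE 0.15, adjusted p = 0.000713), while Gata3 fell from 41.1 to 2.70 RPKM. Their levels per length overlapped between libraries in the cochlea, and in the vestibule Gata2 was far above Gata3. Gata6, at 58, 62 and 68 counts against 15, 7 and 7, went with Gata3, with a log2 fold change of -2.87 (SE 0.28, adjusted p = 0.000138). Dlx1, Dlx3 and Gata2 were named after their values were seen.

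Among the genes that act with these factors in ear development, both directions were common. The lists were chosen with earlier results of these data known, so the shares below are descriptions. Of 29 other regulators of the otic vesicle 23 were tested and 20 (87.0%, against 27.4% of all genes tested) were DE, 7 higher in the vestibule and 13 higher in the cochlea, with a median of -0.63. The count was 13 without vestibule replicate 2, a fit in which the calls over all genes fell as well. They were 1342 higher in the vestibule and 925 higher in the cochlea, against 2325 and 1711. Tbx3 (log2 fold change 3.77, SE 0.23, adjusted p = 1.01e-05 by edgeR) and Msx2 (3.29, SE 0.27, adjusted p = 5.31e-05) were higher in the vestibule, as were Hmx2 and the Dlx genes, and Msx2 passed the filter only through the vestibule. Of 26 genes of the signals that pattern the vesicle 21 were tested and 14 (66.7%, against the same 27.4%) were DE, 7 in each direction, among them Fgf20, higher in the cochlea, which passed the filter only through that tissue. Aldh1a1 and Aldh1a3, which make retinoic acid, were both higher in the vestibule, at 23.2 ± 4.55 CPM against 532 ± 25.3 CPM for Aldh1a1 (SD, n = 3, adjusted p = 2.95e-06 by edgeR) and with a log2 fold change of 3.02 for Aldh1a3 (SE 0.35, adjusted p = 0.000336), and so was the ligand Bmp2 (2.28, SE 0.17, adjusted p = 3.39e-05). A list of 18 genes of canal formation holds 5 of the factors and shares further genes with the other lists. Of its other 13 genes 9 (69.2%, against 27.4%) were DE, 4 higher in the vestibule and 5 in the cochlea. Ntn1, which is needed for the fusion of the canal plates and was named after its values were seen, had the largest of these differences, at 3.60 (SE 0.18, adjusted p = 5.56e-06). Of 18 cofactors, proteins that bind LIM, GATA or other factors of this set, 7 (38.9%, against 27.4%) were DE, 3 higher in the vestibule and 4 in the cochlea. They included Lmo3 (-3.39, SE 0.23, adjusted p = 1.97e-05), the GATA partner Zfpm2 (1.58, SE 0.16, adjusted p = 0.000147) and the LIM-binding Ldb2 (-1.06, SE 0.14, adjusted p = 0.000738). The count of 7 cofactors became 5 to 9 with 1 library left out. With a replicate block it was 4, where fewer of all genes were DE as well.

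**Figure D5:**
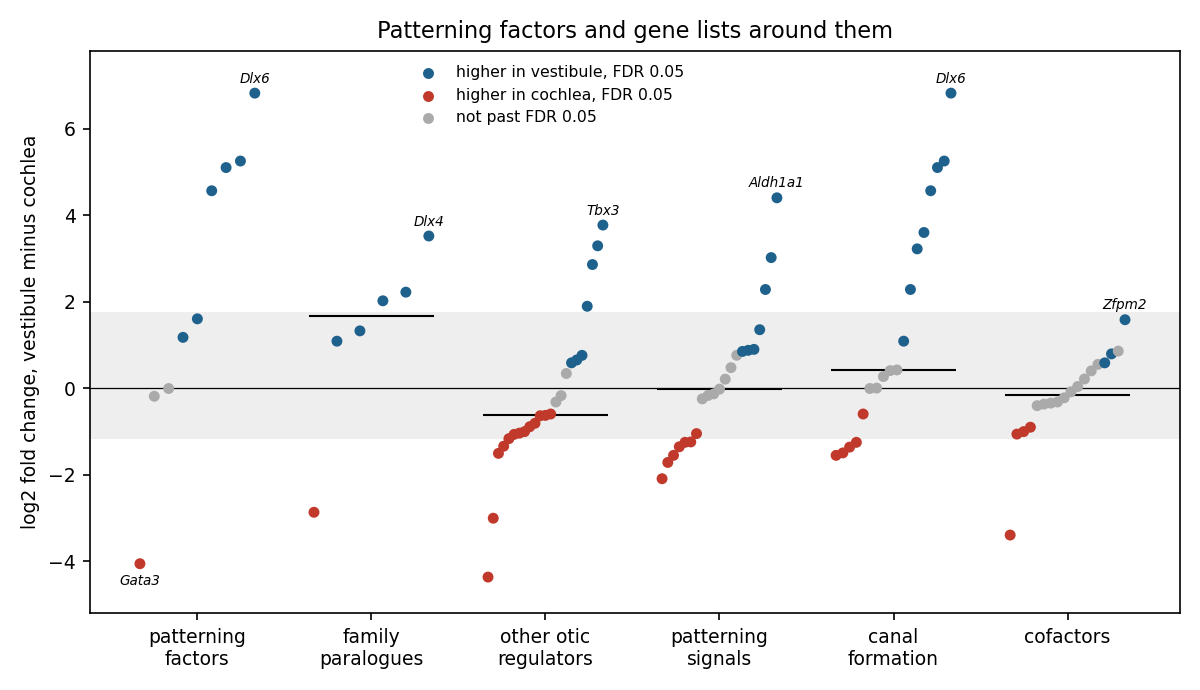
Log2 fold change (vestibule minus cochlea) of the tested genes of 6 lists, a point per gene coloured by the edgeR call, with a black bar at the median of each list other than the factors and a grey band over the middle 90% of all genes tested (-1.16 to 1.73). Of the patterning factors, 4 lie far above the band and Gata3 far below it.

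For each factor that was DE, the 2 genes with the most similar pattern over the 6 libraries were found, by the root mean square difference of their log2 CPM after centring, among all other genes tested. Patterns were most similar to Hmx2 for Sod3 (0.21) and Taar5 (0.22) and to Hmx3 for Vit (0.13) and Aldh1a1 (0.18). For Dlx5 they were Mlana (0.20), a melanocyte gene, and Wnt3 (0.21), and for Dlx6 Sfrp5 (0.46) and Sox1 (0.56), at larger distances. For Pax2 they were Acta2 (0.12) and Fbp1 (0.13), and for Lmx1a Ikzf1 (0.076) and Eln (0.10). Gata3 was closest to Atp6v1b1 (0.089) and Tecta (0.15), a gene of the tectorial membrane and of supporting cells. Among the 9 tested factors themselves, Otx1 and Otx2 were closest, at 0.16, followed by Dlx5 and Hmx3 at 0.33, Dlx5 and Hmx2 at 0.39, and Hmx2 and Hmx3 at 0.42. With 2 tissues, any genes with fold changes of similar size come out as alike in this measure, and it is given as a description.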

How the data were processed

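RNA of cochlear and vestibular sensory epithelia was sequenced in 6 libraries. The authors aligned the read pairs to GRCm38 and ran htseq-count on Ensembl genes, and the deposited counts carry no normalization. The submitters' processing notes name TopHat2 2.1.0, SAMtools 0.1.18, HTSeq 0.5.4p5 and edgeR 3.4.2. The strand setting of the counting is not given in the sources used here. The authors also deposited log2 RPKM values for 14722 genes, scaled by library size. Summary lines that name no gene (18.5% to 20.6% of the listed counts) were left out of library sizes and tests.

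Symbols were matched to gene identifiers with the reference tables (37607 of 39179 identifiers had a symbol). The counts were tested with edgeR 4.0.16 (quasi-likelihood test, TMM scaling, R 4.3.3) over genes that reached 1 CPM in 3 libraries, with Benjamini-Hochberg adjustment over all genes tested, an FDR of 0.05 and no block for replicate numbers. The SE of a log2 fold change is its size over the square root of the F statistic. The TMM factors were 0.921 to 1.09. On counts simulated for this comparison (14528 genes) the test recovered 99 of 100 genes changed 4-fold and 55 of 98 changed 2-fold, with 7 unchanged genes called. Ratios of sister genes were compared with an exact two-sided permutation test, using the gene lengths implied by the log2 RPKM. Counting intervals are at 95%, and reads without molecular identifiers are not independent molecules. Alternatives were limma-voom (limma 3.58.1), DESeq2 1.42.0, edgeR's likelihood ratio test, other scalings, other filters, a replicate block and leaving out each library.

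The genes named were all 10 factors, the 3 with the largest DE of each other list, at most 6 DE neighbours and the 2 most similar genes per DE factor. For 1 gene that this rule selects, no result is given. The factors, lists and markers were chosen with earlier results of these data known. Locations are those of GENCODE vM21 (GRCm38), which is not the annotation the authors counted on. Figures were drawn with matplotlib 3.10.9 in Python 3.11.15.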

Additional observations from a re-analysis of the deposited data

How the results depend on the processing

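Each of the 7 factors that were DE kept its direction and passed the FDR of 0.05 under every alternative in which it was tested. The log2 fold change ranged over 5.05 to 5.50 for Hmx2, 4.45 to 4.68 for Hmx3, 4.99 to 5.22 for Dlx5, 6.25 to 8.92 for Dlx6, 1.42 to 1.94 for Pax2 (highest adjusted p = 0.0184), 1.10 to 1.32 for Lmx1a and -4.21 to -3.90 for Gata3. With 1 library left out, the number of factors higher in the vestibule was 4 to 6 and higher in the cochlea 1 to 1. It fell to 4 when a vestibular library was left out because Dlx5 and Dlx6 then missed the filter, and both were DE in every such fit over the genes first tested, an alternative added after seeing the data. Otx1 changed sign without being DE, at 0.12 with library sizes alone, 0.0097 with upper quartile scaling, 0.11 without cochlea replicate 2 (0.11 over the genes first tested) and 0.12 without vestibule replicate 3 (0.10). Otx1 ranged over -0.11 to 0.12 and Otx2 over -0.31 to -0.00056.

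Counts of DE genes moved more. Leaving out 1 library gave 1342 to 2694 genes higher in the vestibule (lowest without vestibule replicate 2, and 1522 without vestibule replicate 1) and 925 to 1863 higher in the cochlea (lowest without vestibule replicate 2, and 1035 without cochlea replicate 2), against 2325 and 1711. It gave 13 to 20 other otic regulators, 5 to 9 cofactors, 4 to 9 neighbours (4 without vestibule replicate 1 or 2), 5 to 5 sister genes of the families, 10 to 14 genes of canal formation and 11 to 16 patterning signals. With no filter 14 neighbours were DE. The difference in log2 ratio was -0.79 for Dlx5 to Dlx6 with 5 added, and leaving out 1 library gave -3.48 to -1.42, -0.91 to -0.58 for Hmx3 to Hmx2 and 0.11 to 0.29 for Otx1 to Otx2. With library sizes alone the median of all genes shifted by 0.12, the share of DE genes higher in the vestibule went from 57.6% to 68.8% (2754 against 1251), and the median of the patterning signals went from -0.02 to 0.10. The cause of these changes was not tested.

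Libraries share replicate numbers across tissues, and deviations of same-numbered libraries correlated at -0.175, -0.260 and -0.474. These values show no sign of pairing by number, but deviations from means of 3 libraries cannot exclude it. A replicate block gave 1609 genes higher in the vestibule, 1009 higher in the cochlea, 4 cofactors, and the same 7 factors. Depth limits Gbx2 and the cochlear values of Dlx6, Dlx5 and Dlx6os1, which rest on few counts.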
